A study of Mus musculus with 14 samples.

Results

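Type II pre-HSCs are precursors of haematopoietic stem cells (HSCs) that were sorted from the aorta-gonad-mesonephros (AGM) region of mouse embryos at embryonic day 11 (E11). They were taken here as the E11 cells that the authors named preHSC2, with no use of measured transcripts. There were 55 of them among 1121 single cells, of which 546 were E10 and 575 were E11 cells. The 55 cells came from 3 sorted sets, which held 10, 25 and 20 cells.

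The study followed blood formation in the aorta, from endothelium to intra-aortic haematopoietic clusters (IAHCs), by sequencing single cells with CEL-Seq, which counts transcripts by molecular tags at their 3′ ends. Both pre-HSC types were C57BL/6 WT cells from pooled AGM regions of embryos with more than 40 somite pairs, and were sorted as c-kit+ Cdh5+ with the CD45 signal of each cell recorded. Type II cells are those with surface CD45 and type I cells those without it. They are compared here with the 62 type I pre-HSCs, from sets of 8, 34 and 20 cells, and with 46 C57BL/6 WT c-kit+ cells of the E11 yolk sac (YS), from 1 set. Other E11 populations serve as background. The 201 IAHC cells sorted as c-kit+ CD31+ and the 89 sorted as c-kit+ came from C57BL/6 WT embryos. The 46 haemogenic endothelial (HE) cells, the 46 cells in endothelial-to-haematopoietic transition (EHT) and the 30 non-haemogenic endothelial (non-HE) cells came from ICR embryos labelled Gfi+/tomato/ Gfi1b+/GFP, in which reporters replace coding sequence at a pair of haematopoietic repressor genes. Strain and population therefore cannot be told apart in comparisons with these last populations.

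Before birth, blood stem cells arise from endothelium of large arteries. Some endothelial cells round up, enter clusters attached to the vessel wall and switch from vascular to blood genes, a process that requires the transcription factor Runx1. Pre-HSCs are cells of this path that cannot yet repopulate an adult recipient directly but mature into stem cells in culture, and gaining CD45, a receptor tyrosine phosphatase found on nearly all nucleated blood cells, marks the step from type I to type II. The yolk sac is another source of embryonic blood, which gives rise to erythro-myeloid progenitors that do not depend on this arterial route.

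The authors deposited an estimated count of transcripts for every gene and cell, down-sampled to a common total and raised by 0.1. With 0.1 taken off, every type II, type I and YS cell held 5000 transcripts, and the 55 type II cells together held 275000. A median of 2285 genes per type II cell had a transcript (range 2080 to 2497), against 2257 (2021 to 2504) in type I and 2162 (1828 to 2494) in YS cells. Ribosomal protein genes made up 24.5% of transcripts in type II cells, 24.2% in type I cells and 24.9% in YS cells. All pre-HSCs form 1 sample in the labels and YS cells another, so there are no replicates and no test was run between populations. Means are transcripts per cell with exact Poisson intervals in parentheses, and shares have exact Clopper-Pearson intervals, all at 95% and covering counting error only.

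Sets 1, 2 and 3 of type II cells bear the same numbers as the sets of type I cells. No label states whether equal numbers mean a shared sort, but the numbers of the cells bear on it. The cell numbers in the names were never shared between a type II set and the type I set of the same number, whereas the other pairings of a type II with a type I set shared 28 of them in all. Ratios between the types are given over all cells and within each pair of matching sets. The 3 sets did not stand on a par in all genes, and the genes that set them apart are given at the end.

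Of the genes that were given to mark type II cells, *Rac2* (chr15:78559169-78572783, build GRCm38.p6) encodes a small GTPase restricted largely to blood cells. *Rac2* had 1.3, 1.28 and 1.95 transcripts per cell in type II sets 1, 2 and 3 and 0.5, 0.382 and 0.6 in the matching type I sets. Every type II set lay above every type I set. Over all cells the mean was 1.53 (1.2 to 1.89) in type II and 0.468 (0.313 to 0.672) in type I cells, and YS cells had 2.7 (2.2 to 3.21). A *Rac2* transcript was seen in 37 of 55 type II cells (67.3%, 53.3 to 79.3) and in 19 of 62 type I cells (30.6%, 20 to 43.6). HE cells give the background, with *Rac2* in 0 of 46 cells, which allows up to 3.

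*Kif11* (chr19:37376382-37421863) encodes the kinesin motor that pushes spindle poles apart in mitosis. Its means were 2.1, 0.8 and 1.5 in the type II sets and 0.75, 0.382 and 0.35 in the type I sets, again without overlap. YS cells had 0.261 (0.135 to 0.456), below the type II mean of 1.3 (1.01 to 1.63). *Cmtm7* (chr9:114756836-114781993), which encodes a membrane protein of the chemokine-like factor superfamily, had 0.4, 0.88 and 1.1 in type II and 0.375, 0.0882 and 0.55 in type I sets. Type II set 1 lay among the type I sets, and the largest gap was in set 2. *Mpo* (chr11:87793784-87804412), which encodes the myeloperoxidase of granulocyte and monocyte granules, had 0.5, 0.64 and 1.25 in type II and 0.375, 0.118 and 0.5 in type I sets. Each type II set was above its matching type I set, but the ranges met at 0.5. YS cells exceeded every type II set in both genes, with 1.78 (1.4 to 2.21) *Cmtm7* and 1.85 (1.5 to 2.29) *Mpo* transcripts per cell.

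*Ptprc* (chr1:138062859-138175756) encodes CD45 itself, the protein on which the types were sorted. It had 17 transcripts in type II cells, a mean of 0.309 (0.18 to 0.495), and 7 in type I cells, a mean of 0.113 (0.0454 to 0.233). Set means were 0, 0.36 and 0.4 in type II and 0, 0.0588 and 0.25 in type I. In set 1 of type II, 0 of 10 cells had a *Ptprc* transcript, which allows up to 3, so the gene did not separate the types in that set. A transcript was seen in 15 of 55 type II cells (27.3%, 16.1 to 41) and 5 of 62 type I cells (8.06%, 2.67 to 17.8), against 0 of 46 HE cells, which allows up to 3. The average of the type II and type I means was below 0.3, the floor used for comparing genes. At this depth most type II cells thus showed no transcript of the gene that defines them. *Rac2*, *Kif11*, *Cmtm7* and *Mpo* were at least 2-fold above type I cells over all cells, while *Ptprc* was not compared. The markers were given for this population and read in the same cells, so these values describe it and do not test its label. Without set 2 the log2 ratios of *Cmtm7* and *Mpo* were 0.74 and 0.96, within 2-fold. *Rac2*, *Cmtm7* and *Mpo* were higher still in YS cells, and *Kif11* was not.

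The other genes of the sorting gate were *Kit*, which encodes the c-kit receptor for stem cell factor, and *Cdh5*, which encodes the adhesion molecule of endothelial junctions. *Kit* had 1.4, 1.5 and 0.95 transcripts per cell in the type II sets and 0.625, 1.71 and 1.4 in the type I sets, and the ranges overlapped. *Cdh5* (chr8:104101613-104144504) had 1.9, 1.56 and 1.1 in type II and 2.25, 3.68 and 1.9 in type I sets. Each type II set was below its matching type I set, although type II set 1 equalled type I set 3. HE cells had 8.54 (7.72 to 9.43) *Cdh5* transcripts per cell and YS cells 0.13 (0.0479 to 0.284), so type II cells, at 1.46 (1.2 to 1.81), lay between them.

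**Figure D1:**
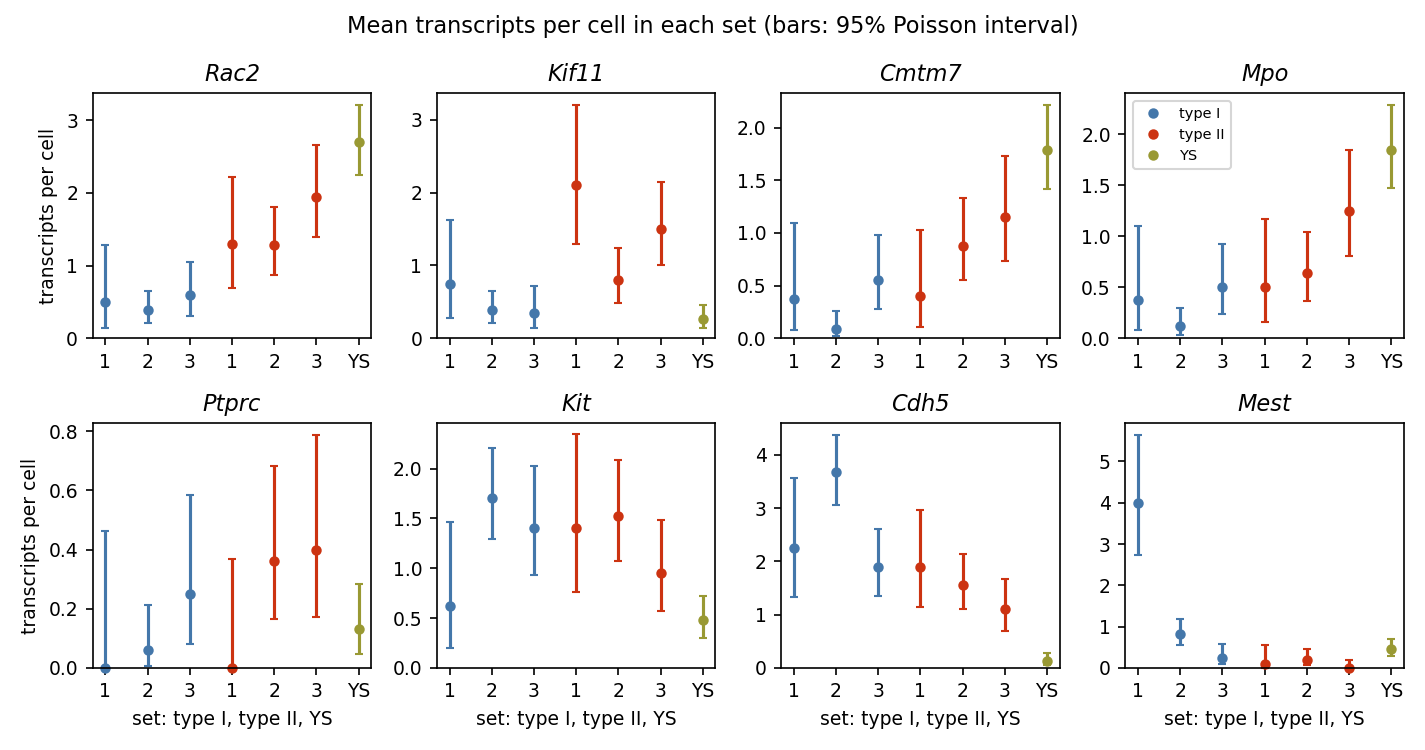
Mean transcripts per cell of the given markers, the sorting genes and *Mest* (vertical axes) in type I sets 1, 2 and 3, type II sets 1, 2 and 3 and YS cells, with bars for exact 95% Poisson intervals. *Rac2* and *Kif11* were higher in every type II set than in every type I set, *Ptprc* was at 0 in set 1 of both types, and *Mest* was highest in type I set 1.

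All genes were compared between the types to see what else differs across the step at which CD45 appears. A gene was compared where the average of the type II and type I means was at least 0.3 transcripts per cell, which held for 3022 of 19424 genes. A gene low in 1 type can pass this floor only through the other, where it is high, so counts of list members among the genes compared are descriptions. It was called where the ratio was at least 2-fold, with 0.1 transcripts per cell added to both means, and had the same direction in all 3 pairs of matching sets. By this rule 24 genes were higher in type II cells (0.794% of genes compared) and 20 were lower (0.662%), together 44 (1.46%). The median log2 ratio of all genes compared was 0.02 and the median of its size was 0.22, so the bulk of genes differed little. The count moved with the settings. It was 3 with a pseudocount of 0.5, 240 with a fold of 1.5, 22 with cells thinned to 3000 transcripts and 74 with sets weighted equally. Without set 2 it was 127 (81 higher and 46 lower) and without set 3 it was 86 (34 higher and 52 lower), with a direction then asked of fewer sets. The 3 genes called with a pseudocount of 0.5 were *Rac2*, higher in type II, and *Ramp2* and *Mest*, lower in type II. They were chosen after their values were seen.

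**Figure D2:**
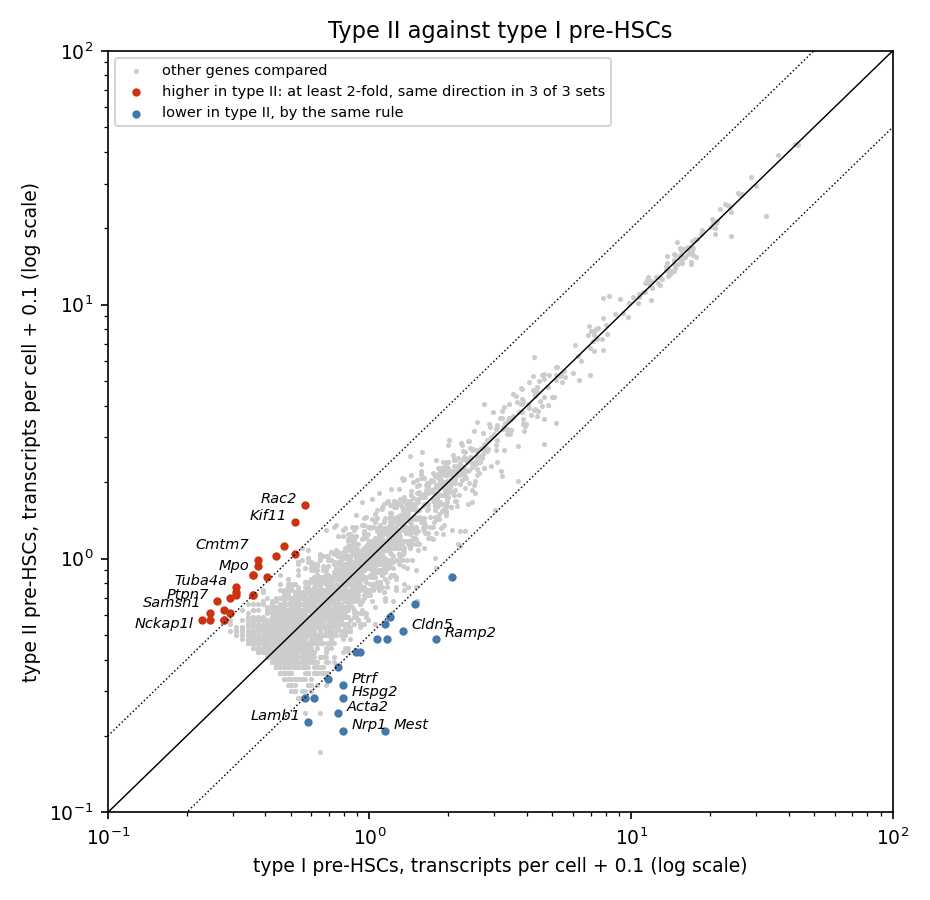
Mean transcripts per cell plus 0.1 in type I (horizontal, log scale) and type II pre-HSCs (vertical, log scale) for the 3022 genes compared, with lines of equality and of a 2-fold difference. The 24 genes higher and 20 lower in type II cells had means near or below 2 transcripts per cell, and the 8 largest ratios of each direction are named.

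Several of the genes higher in type II cells are members of the leukocyte list described below. The log2 ratio of *Rac2* was 1.5, the largest of the higher genes, and 1.2, 1.5 and 1.55 within sets 1, 2 and 3. Counting error alone gives a range of 1.08 to 2.37 for the ratio without pseudocount. *Nckap1l*, which encodes a subunit of the leukocyte WAVE complex that acts downstream of Rac in actin assembly, had 0.3, 0.4 and 0.65 transcripts per cell in the type II sets against 0, 0.147 and 0.15 in the type I sets. Its sets were apart, and the log2 ratio was 1.32 (0.69 to 3.23 without pseudocount). Without set 3 the gene was below the floor, at 1.11. *Fermt3* encodes kindlin-3, which activates integrins in blood cells, and had 0.9, 0.68 and 0.35 against 0, 0.265 and 0.15, a log2 ratio of 1.25. Without set 1, where type I cells had 0 transcripts in 8 cells, its ratio was 0.97 and the gene was no longer called.

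*Ptpn7* encodes a tyrosine phosphatase of blood cells that acts on MAP kinases. It had 0.7, 0.64 and 0.45 transcripts per cell in the type II sets and 0.125, 0.0294 and 0.4 in the type I sets, which did not overlap, and the log2 ratio was 1.38. *Lst1*, a leukocyte membrane adaptor, had 0.3, 1 and 0.7 against 0, 0.147 and 0.55, with a ratio of 1.27 and overlapping sets. *Samsn1*, an adaptor with SH3 and SAM domains, had 0.2, 0.72 and 0.4 against 0.125, 0.147 and 0.15 and a ratio of 1.3, with every type II set on the higher side. The ratios of these genes, of *Cmtm7* (1.41) and of *Mpo* (1.32) leaned on set 2. Without it the log2 ratio was 0.59 for *Ptpn7*, 0.44 for *Lst1*, 0.84 for *Samsn1*, 0.74 for *Cmtm7* and 0.96 for *Mpo*. All stayed above 0, but none was called.

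The remaining named genes on the higher side were of other kinds. *Kif11* had a log2 ratio of 1.4 (0.96 to 2.33 without pseudocount) and was called without each set in turn, between 1.2 and 1.67. *Ung*, which encodes the glycosylase that removes uracil from DNA and is made in S phase, had 0.9, 0.8 and 0.65 against 0.25, 0.324 and 0.15 transcripts per cell and a ratio of 1.27. *Tuba4a*, an alpha-tubulin gene, had 0.4, 0.48 and 1.05 against 0.125, 0.294 and 0.1 and 1.32, and *Slc25a45*, of the mitochondrial carrier family, had 0.9, 0.52 and 0.65 against 0.125, 0.265 and 0.15 and 1.25. In these genes every type II set was above every type I set. *Tuba4a* depended on set 3, without which its ratio was 0.62.

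Promoters of the blood genes that were higher in type II cells are shown because ETS and RUNX proteins, the factor families most closely tied to blood gene activation, bind short known motifs. The genes were the 7 called members of the leukocyte list described below, and *Mpo*. RefSeq promoters of build GRCm38.p6, cropped to 250 bases before the start site, were matched for 5 of these 8 genes, namely *Cmtm7*, *Ptpn7*, *Hcls1*, *Fermt3* and *Mpo*, and *Rac2*, *Lst1* and *Lsp1* had no entry. The motifs searched were GGAAGT, a core bound by ETS factors, and TGTGGT, a core bound by RUNX factors, each also as its reverse complement, ACTTCC and ACCACA. The ETS core was found in *Mpo* and *Hcls1*, thus in 2 of 5 genes (40%), and in 5401 of 27025 promoters of this length (20.0%). The RUNX core was found in *Fermt3* alone, at 2 places, thus in 1 of 5 genes (20%), and in 3832 of 27025 promoters (14.2%). With so few genes these shares are a description. Sequences run 5′ to 3′ along the gene, with the cores in capitals. In *Mpo* (chr11:87793534-87793783, + strand) the core began 222 bases before the start site, in *Hcls1* (chr16:36934733-36934982, + strand) 58 bases before it, and in *Fermt3* (chr19:7019470-7019719, - strand) 61 and 24 bases before it.
*Mpo*: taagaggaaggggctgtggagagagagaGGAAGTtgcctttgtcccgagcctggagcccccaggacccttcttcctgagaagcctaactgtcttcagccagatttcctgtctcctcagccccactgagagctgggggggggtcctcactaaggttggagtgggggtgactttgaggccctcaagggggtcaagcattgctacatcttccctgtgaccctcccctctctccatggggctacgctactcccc
*Hcls1*: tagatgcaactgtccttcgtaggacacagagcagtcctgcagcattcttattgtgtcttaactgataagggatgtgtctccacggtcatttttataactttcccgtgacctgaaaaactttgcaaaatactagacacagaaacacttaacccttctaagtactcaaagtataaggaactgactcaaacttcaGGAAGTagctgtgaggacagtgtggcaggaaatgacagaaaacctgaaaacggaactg
*Fermt3*: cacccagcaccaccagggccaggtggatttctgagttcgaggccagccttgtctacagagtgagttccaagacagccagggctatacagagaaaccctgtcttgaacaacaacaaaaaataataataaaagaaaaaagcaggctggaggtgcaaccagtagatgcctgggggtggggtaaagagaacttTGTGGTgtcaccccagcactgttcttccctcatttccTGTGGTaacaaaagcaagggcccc

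The genes lower in type II than in type I cells include members of the endothelial and matrix lists described below. *Ramp2* (chr11:101246334-101248250) encodes the partner that makes the calcitonin-like receptor respond to adrenomedullin. It had 0.8, 0.36 and 0.2 transcripts per cell in the type II sets and 1.75, 1.94 and 1.25 in the type I sets, without overlap. HE cells had 14.5 (13.4 to 15.6). The log2 ratio was -1.90 (-2.90 to -1.46 without pseudocount), and *Ramp2* was called under all 11 alternatives tried, being the only gene of this comparison for which that held. *Nrp1* (chr8:128358591-128505476), a coreceptor for VEGF and semaphorins, had 0, 0.2 and 0.05 against 0.375, 0.912 and 0.45, with sets apart. A transcript of *Nrp1* was seen in 6 of 55 type II, 25 of 62 type I and 45 of 46 HE cells, and the ratio was -1.92.

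*Cldn5*, a claudin of endothelial tight junctions, had 0.9, 0.28 and 0.35 transcripts per cell in type II and 1.1, 1.32 and 1.1 in type I sets, a log2 ratio of -1.37. *Mmrn2*, an endothelial matrix protein that binds VEGF, had 0.5, 0.52 and 0.15 against 1.25, 1.1 and 0.6 and -1.15. *Ptrf*, a coat protein of caveolae, had 0.2, 0.24 and 0.2 against 0.375, 0.971 and 0.35 and -1.32. In these genes all type II sets were below all type I sets. Among genes of the basement membrane and secreted matrix, *Hspg2* (perlecan) had 0.1, 0.24 and 0.15 against 1.6, 0.706 and 0.3 and -1.49, and *Fstl1*, a secreted follistatin-like glycoprotein, had 0.6, 0.84 and 0.7 against 2.12, 2.41 and 1.1 and -1.29, both with sets apart. *Lamb1* (laminin beta 1) had 0.3, 0.12 and 0.05 against 0.75, 0.588 and 0.2 and -1.36, with sets that overlapped. Without set 2 the ratio was -0.97 for *Cldn5* and -1.0 for *Fstl1*, just inside 2-fold, and *Ptrf* and *Lamb1* fell below the floor, at -0.61 and -0.97. *Lamb1* was also below it without set 1, at -1.53.

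*Mest* (chr6:30733506-30748466), an imprinted gene expressed from the paternal allele that is high in embryonic mesoderm, had the largest ratio of the comparison, at -2.46. It had 0.1, 0.2 and 0 transcripts per cell in the type II sets and 4, 0.824 and 0.25 in the type I sets. All type II sets were below all type I sets, and type I set 1 stood far above the others. Without set 1 the ratio was -1.75, still past the fold. *Acta2*, the smooth muscle actin gene, had 0, 0.28 and 0.05 against 0.25, 0.853 and 0.5 and a ratio of -1.63, with sets that overlapped. *Pdlim1*, which links alpha-actinin to signalling proteins, had 0.5, 0.32 and 0.4 against 0.75, 1.32 and 0.75 and -1.27, with sets apart. *Art4*, an ADP-ribosyltransferase gene that carries the Dombrock blood group, had 0.6, 0.72 and 0.35 against 0.625, 1.71 and 1.1 and -1.16, with overlapping sets and little difference in set 1. Without set 2 the *Pdlim1* ratio was -0.67, and *Acta2* and *Nrp1* were below the floor, although the ratio of either was -1.99, past the fold.

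Lists of genes with a shared role were read without a floor on single genes. They were chosen with earlier results of these data known and hold genes called above, so their shares are no independent support. There were 23 lists, and the share of all transcripts that each list took was computed in every set. Against type I cells, 7 lists were higher and 4 lower in all 3 matching pairs of sets, and 12 were mixed. This balance moved with the settings. It was 5 higher and 6 lower without each list's most abundant member, and 4 and 4 at 3000 transcripts per cell. Without cells that hold more than 2 transcripts of a gene named for non-IAHC cells it was 4 and 7. Each of these alternatives shared 8 lists with the main 11. The endothelial list (29 genes) took 0.402%, 0.393% and 0.271% of transcripts in type II sets 1, 2 and 3 and 0.615%, 0.579% and 0.436% in the type I sets. All type II sets were below all type I sets. Over all cells its share was 0.35% (0.328 to 0.373) in type II and 0.537% (0.512 to 0.564) in type I cells, between 0.167% (0.151 to 0.185) in YS and 2.02% (1.97 to 2.08) in HE cells. Of its 19 genes compared, 3 were called lower, *Cldn5*, *Ramp2* and *Nrp1*, against 0.662% of all genes compared. Of these only *Ramp2* was called without set 2. Of the 19 genes, 17 had a log2 ratio below 0. The median was -0.67, against 0.02 for all genes. Of the 2 members above 0, *Eltd1*, an adhesion G protein-coupled receptor of vessels, was called higher. It had 1.2, 1.2 and 0.65 transcripts per cell in the type II sets and 0.625, 0.324 and 0.35 in the type I sets, with sets apart and a log2 ratio of 1.25, which was 0.82 without set 2. The list's most abundant member was *Cd34*, at 3.94 (3.44 to 4.51) in type II and 3.94 (3.46 to 4.46) in type I cells, and *Cav1* and *Lyve1* had 0 transcripts in type II cells. As for every gene at 0 in the lists below, this allows up to 3 transcripts.

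The arterial and Notch list (21 genes), which holds *Gja5*, *Sox17*, *Dll4* and other genes of arterial identity, took 0.036%, 0.0544% and 0.032% in the type II sets and 0.11%, 0.157% and 0.065% in the type I sets, again without overlap. Over all cells it was 0.0429% (0.0355 to 0.0514) in type II, 0.121% (0.109 to 0.134) in type I, 0.0248% (0.0188 to 0.0321) in YS and 1.17% (1.13 to 1.2) in HE cells. Type II cells were thus nearer to YS cells than to type I cells in this list. Only 5 members passed the floor, all with ratios below 0. Of these, *Id3*, a transcriptional inhibitor induced by BMP signals, was called lower at -1.11 (-0.89 without set 1), against 0.662% of all genes. *Elk3*, an ETS factor and the list's most abundant member, had 0.1, 0.68 and 0.4 transcripts per cell in type II and 1, 1 and 0.65 in type I sets, which overlapped. *Hey2*, *Jag1* and *Unc5b* had 0 transcripts in type II cells.

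The matrix list (22 genes) took 0.212%, 0.195% and 0.117% in the type II sets and 0.385%, 0.392% and 0.19% in the type I sets. Each type II set was below its partner, but type II sets 1 and 2 were above type I set 3. Of 8 genes compared, 4 were called lower, *Lamb1*, *Sparc*, *Fstl1* and *Hspg2*, against 0.662% of all genes. Of these 4, only *Hspg2* was called without set 2, and *Lamb1* and *Sparc* were not called without cells that hold more than 2 transcripts of a gene named for non-IAHC cells, which are 9 of 55 type II and 21 of 62 type I cells. All 8 had a ratio below 0, with a median of -0.96. *Sparc*, which encodes a collagen-binding glycoprotein, had 0.7, 0.48 and 0.3 against 1.75, 1.2 and 0.5 transcripts per cell and a log2 ratio of -1.05, or -0.84 without set 2, and its sets overlapped. Fibronectin, *Fn1*, supplied 32.1% of the list in type II cells. It had 3.1, 3.76 and 1.25 in type II and 2.62, 6.09 and 2.6 in type I sets, with a higher mean in type II only in set 1.

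The leukocyte list (35 genes) holds *Rac2*, *Cmtm7*, *Ptprc* and other genes already seen to differ in these samples, so it is no independent support for them. It took 0.4%, 0.462% and 0.475% in the type II sets and 0.203%, 0.281% and 0.339% in the type I sets. All type II sets were above all type I sets. Over all cells its share was 0.456% (0.431 to 0.481) in type II, 0.29% (0.271 to 0.309) in type I, 0.523% (0.494 to 0.554) in YS and 0.0604% (0.0508 to 0.0713) in HE cells. Of 19 members compared, 7 were called higher, *Rac2*, *Cmtm7*, *Ptpn7*, *Lst1*, *Fermt3*, *Lsp1* and *Hcls1*, against 0.794% of all genes compared. Of these 7, only *Rac2* and *Fermt3* were called without set 2 and only *Rac2* at 3000 transcripts per cell, and *Cmtm7* and *Ptpn7* were not called without cells that hold more than 2 transcripts of a gene named for non-IAHC cells. Of the 19, 17 had a ratio above 0, and the median was 0.72. *Lsp1*, an actin-binding protein of leukocytes, and *Hcls1*, an actin regulator that binds the Arp2/3 complex, were named after their values were seen, with log2 ratios of 1.05 and 1.0. Neither was called without set 1, at 0.93 and 0.98, or without set 2, at 0.94 and 0.93. *Coro1a*, which encodes the actin-binding coronin of leukocytes and was the list's most abundant member, had 3.2, 4.56 and 3.6 transcripts per cell in the type II sets and 2, 2.53 and 3.05 in the type I sets, which did not overlap. With the given markers *Rac2*, *Cmtm7* and *Ptprc* left out, a choice made after the data were seen, the list's share was 0.401% in type II and 0.273% in type I cells.

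**Figure D3:**
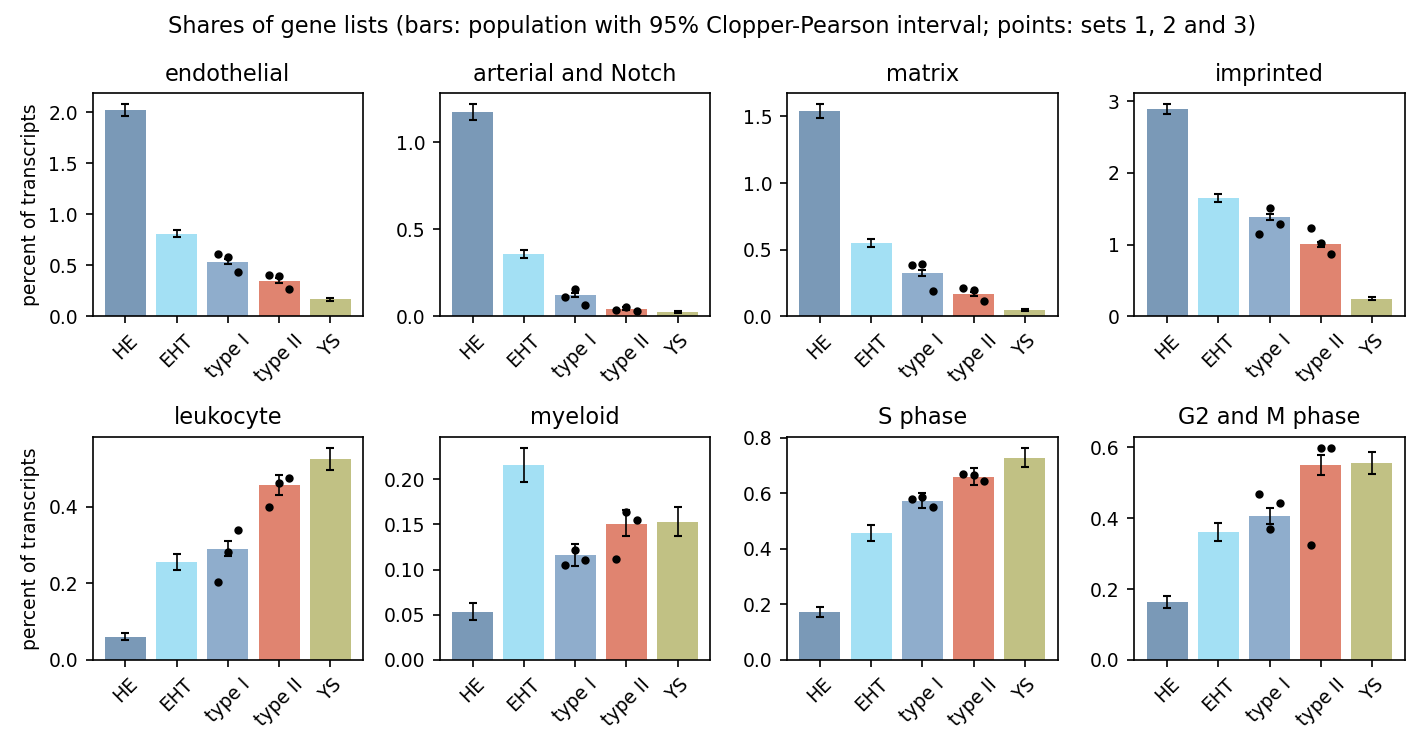
Percent of transcripts taken by 8 gene lists (vertical axes) in E11 HE, EHT, type I, type II and YS cells, with bars for populations, error bars for exact 95% Clopper-Pearson intervals and points for sets 1, 2 and 3. Type II cells lay between type I and YS cells in the endothelial, arterial and Notch, matrix, imprinted and leukocyte lists. In the list of G2 and M phase, set 1 stood below sets 2 and 3 in type II cells but above them in type I cells.

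Lists of other blood and stromal lineages were read for cells that the gate could have held. The macrophage list (15 genes present) had 6 transcripts in all type II cells, 2, 3 and 1 in the sets. Its top gene was *Cd68*, with 2 transcripts, and *Emr1*, *C1qa*, *C1qb*, *C1qc*, *Mrc1*, *Ctss*, *Lgals3*, *Cd14*, *Timd4* and *Aif1* had 0. The list took 0.00218% (0.000801 to 0.00475) of transcripts in type II cells, against 0.112% (0.0985 to 0.126) in EHT cells, of which 1 cell held 131 transcripts. The mesenchymal list (17 genes) took 0.036%, 0.016% and 0.006% in the type II sets and 0.0675%, 0.0406% and 0.024% in the type I sets, each lower than its partner. *Col3a1*, with 9 transcripts, was its top gene, while *Cnn1*, *Pdgfrb*, *Epha7* and *Lum* had 0. *Col3a1* had 0.8, 0.04 and 0 transcripts per cell in type II sets and 1, 0.206 and 0 in type I sets, and was at 0 in set 3 of both types. Of its members only *Acta2* passed the floor.

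The myeloid list (25 genes) took 0.112%, 0.163% and 0.155% in the type II sets and 0.105%, 0.122% and 0.111% in the type I sets, with every type II set above its partner. *Mpo* was the only member called of 8 compared, against 0.794% of all genes called higher. Its most abundant member was *Cxcr2*, a chemokine receptor of neutrophils, with 1.2, 1.68 and 2 in type II against 1.1, 0.882 and 1.1 in type I sets. Genes of committed granulocytes, *Elane*, *Ctsg*, *Cebpa*, *Cebpe* and *Ms4a3*, had 0 transcripts in type II cells, as did *Clec12a* and *Nkg7*. *Prtn3*, another protease of primary granules, had 44 transcripts, a mean of 0.8 (0.581 to 1.07), and was named after its value was seen. Granule genes were thus seen in part. The lymphoid list (19 genes present) took 0.016%, 0.028% and 0.033% in type II and 0.015%, 0.0223% and 0.017% in type I sets. *Cd27*, a receptor of the TNF receptor family, supplied 23 of its 76 transcripts in type II cells, and 11 genes had none, among them *Rag1*, *Rag2*, *Cd3e* and *Ebf1*. Only 1 member was compared, and it was not called, against 1.46% of all genes.

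The erythroid list (23 genes) took 0.064%, 0.107% and 0.157% in the type II sets and 0.0425%, 0.114% and 0.231% in the type I sets. Sets of either type followed their number more than their type here, with the lowest share in set 1 and the highest in set 3. The embryonic globin *Hbb-y* was the top gene, with 0, 1.2 and 3.05 in type II and 0, 1.09 and 4.65 in type I sets, and *Hba-x*, the embryonic alpha-like globin, had 0, 0.12 and 0.6 and 0.125, 0.206 and 1.65. *Hba-x* and *Art4* were called lower of 7 compared, against 0.662% of all genes, at -1.03 for *Hba-x*, which was -0.96 without set 1 and -0.65 without set 3. Among genes with 0 transcripts in type II cells were *Klf1*, *Hba-a1*, *Hba-a2*, *Car1* and *Ermap*. Embryonic globin transcripts were thus found without those of the adult alpha globins or of *Klf1*, the erythroid transcription factor. The megakaryocyte list (14 genes) took 0.028%, 0.036% and 0.021% against 0.0275%, 0.0412% and 0.03%. *Cd9*, a tetraspanin, was its top gene at 0.345 (0.208 to 0.539), and *Gp1bb*, *Gp1ba*, *Gp6* and *Treml1* had 0. None of 2 members compared was called, against 1.46% of all genes. What part cells or free RNA of these other lineages had in the differences between the types was not tested.

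Genes tied to stem cell identity were read in 2 lists. Of 40 haematopoietic transcription factors and chromatin regulators, 28 were compared and none was called, which, with 1.46% of all genes called, says little about this list. There were 15 ratios above and 13 below 0, with a median of 0.18. The share was 0.472%, 0.529% and 0.384% in the type II sets and 0.39%, 0.44% and 0.383% in the type I sets, with each type II set above its partner but sets that overlapped. *H2afy*, a histone variant gene, took the most transcripts, with 2.53 (2.12 to 2.98) in type II and 1.5 (1.2 to 1.82) in type I cells. *Erg*, *Ikzf3* and *Hoxa10* had none in type II cells. Of 16 surface genes of stem cells compared, *Ctla2a*, which encodes a cysteine protease inhibitor, was called higher, against 0.794% of all genes. It had 1.5, 0.68 and 0.95 against 0, 0.206 and 0.7 transcripts per cell and a log2 ratio of 1.23, or 0.88 without set 1. *Gpr56*, an adhesion receptor of aortic haematopoietic clusters and the top gene of this list, was at 5.18 (4.6 to 5.82) in type II and 4.47 (3.96 to 5.03) in type I cells. The list took 0.489% of transcripts in type II and 0.503% in type I cells.

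Lists of signalling and of the cytoskeleton differed less than the leukocyte list. Cytokine receptors took 0.163% of transcripts in type II and 0.141% in type I cells, with *Cxcr2* again as the top gene. Of 7 compared 0 were called, against 1.46% of all genes. Actin and tubulin genes took 2.5% and 2.36%, and of 33 compared *Tuba4a* was called higher and *Pdlim1* and *Tuba1a* lower, against 0.794% and 0.662% of all genes. *Tuba1a*, an alpha-tubulin gene, had 0.6, 0.24 and 0.3 against 2.25, 0.647 and 0.45, a ratio of -1.06 that was -0.88 without set 1. *Actb*, its top gene, was at 20.8 (20 to 22.1) and 20.5 (19 to 21.7).

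Cell cycle lists were read because *Kif11* is a mitotic gene. The list of G2 and M phase (47 genes) took 0.324%, 0.598% and 0.599% in the type II sets and 0.468%, 0.368% and 0.442% in the type I sets. Type II set 1 was below its partner and sets 2 and 3 above theirs, so the direction was mixed. *Kif11* went the other way within type II cells, with its highest mean in set 1. Of 26 members compared *Kif11* alone was called, against 0.794% of all genes called higher, though 24 had a ratio above 0 over all cells, with a median of 0.34. *Ube2c*, a ubiquitin-conjugating enzyme of mitotic exit, was the top gene, with 1.2, 2.16 and 2.15 in type II and 1.75, 0.794 and 1.75 in type I sets. The S phase list (44 genes) was steadier, with 0.67%, 0.666% and 0.643% in type II and 0.578%, 0.586% and 0.55% in type I sets, which did not overlap. YS cells were higher still, at 0.728% (0.694 to 0.764). *Ung* was the only one of 33 S phase genes called, again against 0.794%, and the median log2 ratio was 0.18. *Mcm6*, a subunit of the replicative helicase and the list's top gene, had the same mean of 2.16 in both types. These shares are summed over cells and give no cell's phase.

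The glycolysis list (18 genes present) took 0.608%, 0.567% and 0.657% in the type II sets and 0.555%, 0.49% and 0.544% in the type I sets, without overlap, and 0.989% (0.949 to 1.03) in YS cells. *Gapdh* supplied 35.2% of it in type II cells, with 12.2, 9.52 and 11.4 against 10.4, 7 and 9.2 transcripts per cell. No member was called of 11 compared, which, with 1.46% of all genes called, says little about this list. The list of imprinted genes (20 genes) took 1.23%, 1.02% and 0.868% in the type II sets and 1.1%, 1.5% and 1.28% in the type I sets, with set 1 in the opposite direction to sets 2 and 3. *Mest*, which was lower, was the only member called of 8 compared, against 0.662% of all genes called lower. The interferon and MHC list (18 genes) took 0.15%, 0.194% and 0.169% against 0.0775%, 0.179% and 0.165%, with *Ifitm1*, an interferon-induced membrane protein, as top gene at 2.7 (2.29 to 3.18) and 1.9 (1.6 to 2.28). Without *Ifitm1* there was no difference over all cells, with 0.123% in both types and a ratio of 0.997. The list of genes that respond to tissue dissociation (16 genes) took 0.852%, 0.605% and 0.627% against 0.637%, 0.671% and 0.639%. Its top gene was *Hspa8*, a constitutive chaperone, at 21.7 (20.5 to 23) in type II cells. No member was called of 10, against 1.46% of all genes.

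Within single cells, transcripts of the vascular and leukocyte lists occurred together in nearly every population. Every type II cell had transcripts of both the endothelial and the leukocyte list, which 61 of 62 type I and 44 of 46 YS cells also had, as did 42 of 46 HE cells, so this share does not set type II cells apart. Type II cells held 2 to 38 endothelial transcripts per cell (median 16) and 13 to 45 leukocyte transcripts (median 21). Type I cells held 4 to 67 (median 26) and 0 to 31 (median 15), and YS cells 0 to 61 (median 7) and 7 to 49 (median 25). The ranges of all 3 populations overlapped in both lists. In 37 of 55 type II cells (67.3%, 53.3 to 79.3) the leukocyte list had more transcripts than the endothelial list, against 10 of 62 type I cells (16.1%, 8.02 to 27.7) and 44 of 46 YS cells (95.7%, 85.2 to 99.5). So it had in 53 of 89 IAHC cells sorted as c-kit+ (59.6%, 48.6 to 69.8) and 86 of 201 sorted as c-kit+ CD31+ (42.8%, 35.9 to 49.9). In type II sets 1, 2 and 3 this held for 4 of 10, 17 of 25 and 16 of 20 cells, and in set 1 as many cells, 4 of 10, had more endothelial transcripts. Since the leukocyte list holds genes already seen to differ, these shares describe the cells and support nothing further.

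A single YS cell held 61 endothelial transcripts, and the other YS cells held at most 20. Among type II cells, the counts of both lists were weakly related, with Pearson's r of -0.18 and Spearman's rho of -0.13 over 55 cells that share 1 sample and a fixed depth. Within sets 1, 2 and 3 Pearson's r was 0.21, -0.23 and -0.18. The sign was not the same in all sets. *Cdh5* and *Ptprc* transcripts were found together in 10 of 55 type II cells (18.2%, 9.08 to 30.9) and 3 of 62 type I cells (4.84%, 1.01 to 13.5), against 0 of 46 HE cells, which allows up to 3. *Cdh5* without *Ptprc* was found in 28 type II cells, *Ptprc* without *Cdh5* in 5 and neither in 12.

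**Figure D4:**
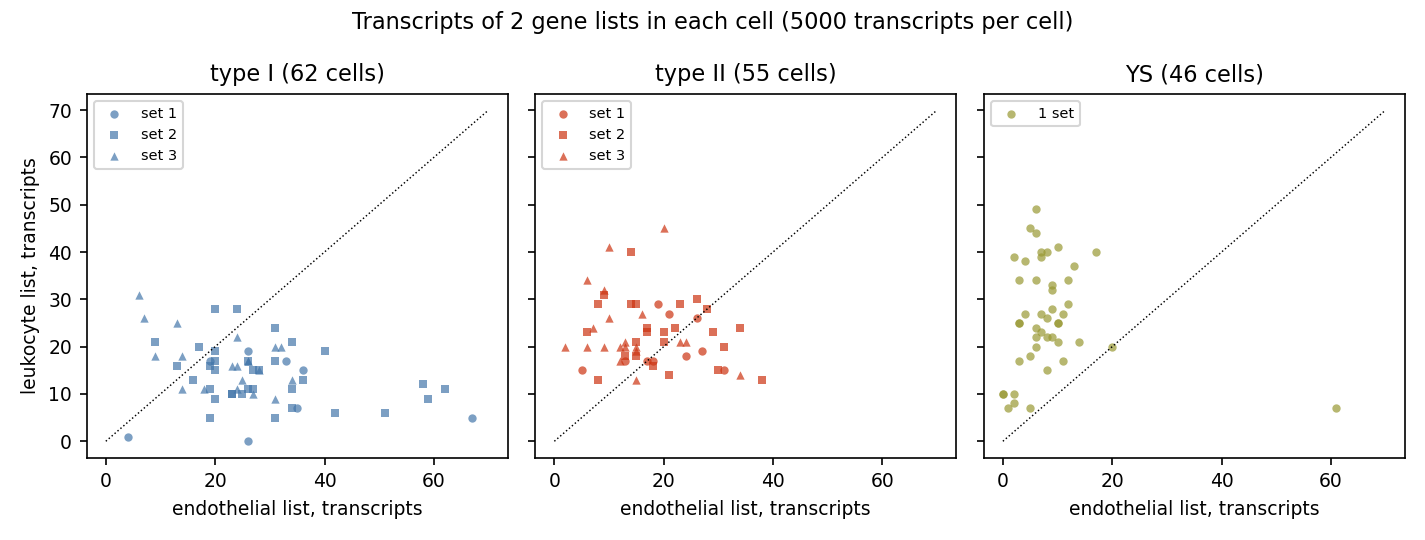
Transcripts of the endothelial list (horizontal) and the leukocyte list (vertical) in each of 62 type I, 55 type II and 46 YS cells at 5000 transcripts per cell, with a line of equality and a symbol for each set. Of the type II cells, 37 lie above the line, against 10 type I and 44 YS cells.

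Type II cells were also compared with YS cells, to separate what belongs to the aortic route from what blood progenitors of the same stage have in common. This comparison uses the same type II cells as the one with type I cells, so its values are given side by side with the former and not as further support. Of 2965 genes compared, 119 were higher in type II cells (4.01%) and 68 were lower (2.29%), together 187 (6.31%), with the same direction in all 3 type II sets. The count was 37 with a pseudocount of 0.5, 650 with a fold of 1.5, 118 at 3000 transcripts per cell and 294 without set 3. YS cells came from 1 set, so the set and the tissue cannot be told apart. The gates differed too, since type II cells were sorted on Cdh5 and c-kit and YS cells on c-kit alone, so the gate cannot be told apart from the tissue in *Cdh5* and other endothelial genes.

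The 12 genes with the largest ratios over YS cells included members of the endothelial, matrix and imprinted lists. *Fn1* had 3.1, 3.76 and 1.25 transcripts per cell in the type II sets and 0.109 (0.0353 to 0.254) in YS cells, a log2 ratio of 3.76 against -0.71 in the comparison with type I. *Vwf*, which encodes von Willebrand factor, had 1.9, 1.2 and 0.85 in the type II sets and 1 transcript in YS cells, with ratios of 3.42 against YS (3.26 to 11.11 without pseudocount) and -0.67 against type I. *Procr*, the endothelial protein C receptor, had 0.6, 1.8 and 0.7 in the type II sets and also 1 transcript in YS cells, with ratios of 3.38 (3.21 to 11.07 without pseudocount) and -0.51. All type II sets were far above YS cells in these genes, while the means over all cells were lower in type II than in type I. *Cdh5* had ratios of 2.75 and -0.96, *Trim47*, a ubiquitin ligase gene, 2.47 and -0.97, and *Ecscr*, an endothelial surface protein, 2.26 and -0.34. The *Ecscr* call rested on set 1, without which the gene was below the floor, at 1.89.

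*H19* (chr7:142575530-142578146) and *Igf2* (chr7:142650768-142666816) are neighbours in an imprinted domain, where the former is an RNA expressed from the maternal allele and the latter a growth factor expressed from the paternal allele. *H19* had 28.6, 21.4 and 20.4 transcripts per cell in the type II sets, 19.9, 34 and 35.4 in the type I sets and 3.65 (3.12 to 4.25) in YS cells. *Igf2* had 22.1, 20 and 15.6 in type II sets, 16.8, 27.7 and 20.6 in type I sets and 2.78 (2.32 to 3.31) in YS cells. Their log2 ratios against YS cells were 2.58 and 2.70, and both genes were called under all 11 alternatives. *Cdkn1c*, an imprinted inhibitor of cyclin-dependent kinases, had 1.8, 0.64 and 1.1 in the type II sets and 0.13 (0.0479 to 0.284) in YS cells, a ratio of 2.28, but 2 YS cells held all of its YS transcripts. Every type II set was above YS cells in all of these imprinted genes. *Cdkn1c* is also a gene that the paper names for haematopoietic cells of sub-aortic patches, outside IAHCs. Without cells that hold more than 2 transcripts of a gene named for non-IAHC cells, the imprinted list took 0.917% in type II and 0.227% in YS cells.

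Other genes among the largest ratios were *Slc23a1*, a transporter of vitamin C, with 0.8, 2.08 and 3.45 transcripts per cell in the type II sets, 2.38, 1.03 and 2.55 in the type I sets and 0.174 (0.0751 to 0.343) in YS cells, and *Gm12504*, listed by RefSeq as a transcribed pseudogene of the *Ptma* family, for which the origin of the counts was not tested, with 1.8, 3.28 and 1.2 in type II sets, 1.1, 1.82 and 1 in type I sets and 0.326 (0.182 to 0.538) in YS cells. Their ratios against YS cells were 3.16 and 2.47. Both were low in IAHC cells sorted as c-kit+ CD31+, at 0.0498 (0.0239 to 0.0915) and 0.433 (0.347 to 0.534), which belong to the same strain and stage, so every pre-HSC set of both types stood above these cells. *Usp47*, a deubiquitinase, had 0.6, 0.52 and 0.8 in the type II sets and 2 transcripts in YS cells, a ratio of 2.36 (1.9 to 6.97 without pseudocount). It was below the floor without set 3, at 2.16.

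In the lists, 8 of 15 endothelial genes compared were higher and none lower, and 5 of 6 matrix genes were higher, against 4.01% of all genes compared. *Fn1*, *Vwf*, *Procr* and *Cdh5* passed the floor only through type II cells, so these counts are no support. The 4 largest endothelial ratios were those of *Vwf*, *Procr*, *Cdh5* and *Ecscr*. For matrix genes beside *Fn1*, the ratios were 1.86 for *Col18a1*, 1.41 for *Fstl1* and 1.36 for *Col4a1*, the first and last being collagens of basement membranes. *Kit* was higher at 1.27, as were *Esam* (1.32), an adhesion molecule of endothelium and stem cells, and 3 of 24 haematopoietic regulators. These were *Hlf*, a factor tied to stem cell maintenance, with 0.4, 0.76 and 0.25 in the type II sets and 0.152 (0.0612 to 0.314) in YS cells, *Mycn* and the DNA methyltransferase gene *Dnmt3a*, with ratios of 1.27, 1.05 and 1.09. Against type I cells the same genes had ratios of 0.19, 0.42 and 0.33. Without set 2 *Hlf* was below the floor at 0.67 and *Mycn* had 0.35, and without set 1 *Dnmt3a* had 0.87.

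Among genes lower in type II than in YS cells, the largest ratio was that of a metallothionein. *Mt1*, a metal-binding protein, had 1 transcript in 55 type II cells and 1.13 (0.844 to 1.5) per cell in YS cells, a log2 ratio of -3.38 (-11.29 to -3.42 without pseudocount). *Mt2* had 5 transcripts in type II cells against 0.652 (0.44 to 0.931) per cell, a ratio of -1.98. *Plac8*, a cysteine-rich protein of myeloid cells, and *Cited4*, a coactivator that binds CBP, also had 1 transcript each in type II cells, with 0.826 (0.585 to 1.13) and 0.696 (0.476 to 0.982) in YS cells. *Blvrb*, which encodes biliverdin reductase B of red cells, had 1 against 0.63 (0.422 to 0.905). The ratios without pseudocount were -10.85 to -2.94 for *Plac8*, -10.61 to -2.68 for *Cited4* and -10.47 to -2.52 for *Blvrb*. These genes were nearly absent from type I cells too, with 5, 3, 2, 0 and 3 transcripts for *Mt1*, *Mt2*, *Plac8*, *Cited4* and *Blvrb*.

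*Lgals1*, a secreted lectin, had 0.8, 0.64 and 0.25 transcripts per cell in the type II sets and 2.7 (2.2 to 3.17) in YS cells, a log2 ratio of -2.13. *Cd52*, a small glycoprotein of leukocytes, had 0, 0.04 and 0.15 against 0.609 (0.405 to 0.88) and -2.04. With *Tyrobp* (-1.12, or -0.86 without set 2) and *Fcer1g* (-1.68), signalling adaptors of myeloid receptors, it was among 3 of 22 leukocyte genes lower than in YS cells, against 2.29% of all genes compared. *Cd52* passed the floor only through YS cells. The list's median log2 ratio was 0.10 with 11 above and 11 below 0. The leukocyte list as a whole took 0.87 times its YS share. *Mpo* was lower at -1.06, which was -0.95 without set 1 and -0.82 without set 2. *Rac2* and *Cmtm7*, at -0.78 and -0.93, stayed within 2-fold. The myeloid genes *Cebpb*, *Lyz1* and *Lyz2* were higher in type II cells, at 1.78, 1.32 and 1.63, so the myeloid list moved in both directions. *Cebpb* is a transcription factor of myeloid cells and the others are lysozymes, which were below the floor without set 2, at 0.45 and 1.05. Its share was 0.151% in type II and 0.152% in YS cells.

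In the glycolysis list 3 of 12 genes compared were lower in type II cells, *Pgk1* at -1.14, *Tpi1* at -1.12 (-0.91 without set 2) and *Pgam1* at -1.05, against 2.29% of all genes compared, and 11 had a ratio below 0. In the megakaryocyte list *Itga2b* (CD41) was lower at -1.33. *Itga2b* was at 0.2 (0.0998 to 0.358) in type II and 0.652 (0.44 to 0.931) in YS cells. In the erythroid list 4 of 10 genes compared were lower, *Mt1*, *Mt2* and *Blvrb*, given above, and *Hba-x* at -1.75, against 2.29% of all genes compared. *Mt1*, *Mt2* and *Blvrb* passed the floor only through YS cells, so this count is no support. *Art4* was higher at 1.67, but below the floor without set 2, at 1.4. *Snhg3*, a host gene of small nucleolar RNA, was lower at -2.0. *Gm4832*, *Gm10548*, *Rasl2-9* and the chromosome 18 entry of *Gm5506*, at -2.10, -2.06, -2.0 and -1.77, complete the 12 largest falls. Some of these are predicted or near-copies of other genes, for which the origin of the counts was not tested.

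Single members of other lists were higher in type II than in YS cells. They were *Kif11* at 1.95 (1 of 30 compared), *Ifitm3*, an interferon-induced membrane protein, at 1.8 (1 of 7) and *Capg*, an actin-capping protein, at 1.36 (1 of 33). The others were *Elmo1*, which activates Rac, at 1.1 (1 of 13) and *Ung* at 1.02 (1 of 36). With 4.01% of all genes called higher, single calls say little about these lists. *Rfc5*, a subunit of the clamp loader of replication, was lower at -1.06 (1 of 36), against 2.29% of all genes called lower. Without set 1 the ratio was 0.95 for *Elmo1* and 0.97 for *Ung*. Without set 2 it was 0.97 for *Ung* and -0.81 for *Rfc5*, and without set 3 0.72 for *Elmo1* and -0.98 for *Rfc5*, all within 2-fold. Over the 23 lists, 10 were higher and 5 lower in all 3 type II sets than in YS cells, and 8 were mixed. The higher lists were those of sorting genes, endothelium, arterial and Notch genes, matrix, mesenchyme, imprinted genes, haematopoietic regulators, stem cell surface genes, actin and tubulin and dissociation. The lower ones were the leukocyte, erythroid, megakaryocyte, S phase and glycolysis lists.

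To describe how type II cells vary between these references, each cell's transcripts were scored by their multinomial likelihood under the summed type I profile and under the summed YS profile, never with the cell in its own profile. By this score 14 of 55 type II cells (25.5%, 14.7 to 39) were nearer to the YS profile and 41 nearer to the type I profile. Type I cells share their sample and their c-kit+ Cdh5+ gate with type II cells, whereas YS cells do not. Sample, set and gate therefore cannot be told apart from cell type in this score. In type I, 3 of 62 cells (4.84%, 1.01 to 13.5) were nearer to YS, and in YS cells 44 of 46 (95.7%, 85.2 to 99.5). The sets differed, with 0 of 10 type II cells nearer to YS in set 1, which allows up to 3, 6 of 25 in set 2 and 8 of 20 in set 3. The 3 type I cells nearer to YS were all from set 3. The median natural-log likelihood ratio, type I over YS, was 288 in set 1, 165 in set 2 and 66.9 in set 3 of type II, against 314, 407 and 252 in the type I sets. The type II sets thus spread over a range that reached that of YS cells, whose median was -407.

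The 14 type II cells nearer to YS cells had medians of 9.5 endothelial and 25 leukocyte transcripts and of 7 *H19* and 4 *Igf2* transcripts. The other 41 had medians of 20 and 21, and of 24 and 21. The cells differed more in endothelial and imprinted genes than in leukocyte genes. These genes are part of the profiles that placed the cells, so the values describe the groups and do not test them. Without *H19* and *Igf2*, a choice made after the data were seen, 16 type II cells were nearer to YS, and without all genes called in either comparison 20 were.

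**Figure D5:**
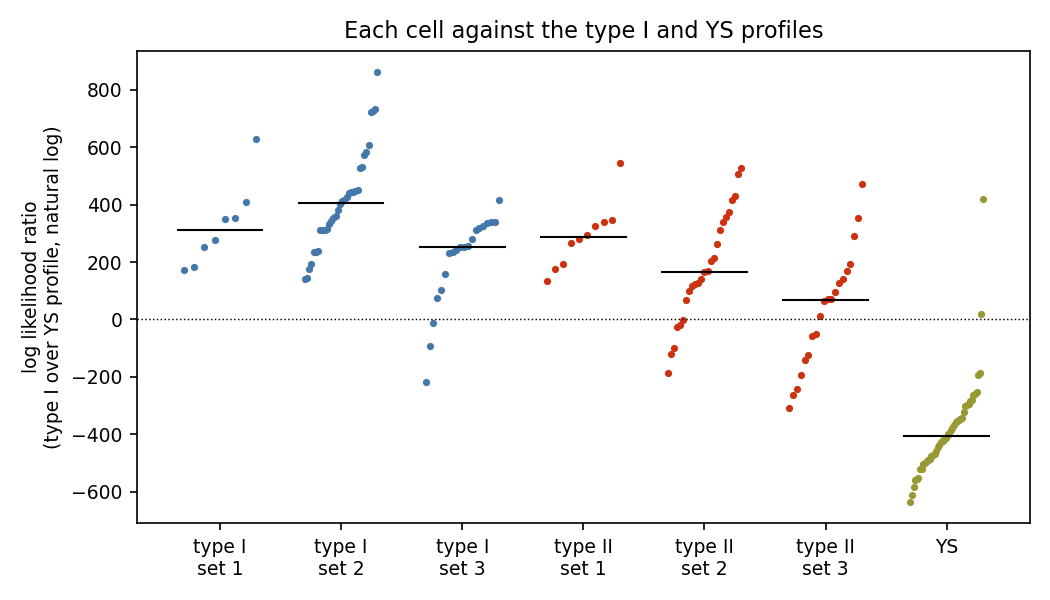
Natural-log likelihood ratio of each cell's transcripts under the type I over the YS profile (vertical) in type I sets, type II sets and YS cells (horizontal), with a point for each cell, black lines at set medians and a dotted line at equal likelihood. Below the dotted line lie 0, 6 and 8 cells of type II sets 1, 2 and 3, and 44 of 46 YS cells.

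Among type II cells themselves, the ratio of variance to mean, which is 1 for counting error alone, had a median of 1.06 over 1790 genes of at least 0.5 transcripts per cell, and was above 2 for 51 of them (2.8%). The highest were *H19* (9.26), *Igf2* (7.6), *Hspa1b* (5.37), *Hspa1a* (5.26) and *Ube2c* (4.74), followed by *Procr* (4.26), *Dnajb1* (3.96), *Jun* (3.79), *Hspa8* (3.73) and *Ifitm1* (3.54). *H19* ranged up to 66 transcripts in a cell around a median of 20, with 2 cells at 0, and *Igf2* up to 65 around 19, also with 2 at 0. For *Procr*, 5 cells held 51.6% of the transcripts, and *Ube2c* had up to 14 transcripts in a cell around a median of 0.

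*Hspa1a* and *Hspa1b*, neighbouring genes on chromosome 17 that encode the inducible heat shock protein 70, were concentrated in set 1. Their means in type II sets were 2.3, 0.12 and 0.15 and 2.5, 0.24 and 0, and in type I sets 0.5, 0.529 and 0.5 and 1, 0.618 and 0.15. In set 1 of type II, 4 of 10 cells held 3 or more transcripts of the pair, against 1 of 25 in set 2 and 0 of 20 in set 3, which allows up to 3. *Dnajb1*, a cochaperone of this protein, was also highest in set 1 of type II, at 2, 0.56 and 0.45. Most *Hspa1a* and *Hspa1b* transcripts of type II cells thus came from set 1, for which the cause was not tested.

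Between the 3 type II sets, the ratio of highest to lowest mean had a median of 1.45 over 793 genes of at least 1 transcript per cell, and exceeded 2 for 114 (14.4%). The embryonic globin *Hbb-y* differed most, with 0 transcripts in 10 cells of set 1 and means of 1.2 and 3.05 in sets 2 and 3. The type I sets held 0, 1.09 and 4.65, so both types moved alike with the set number. *Samm50*, a mitochondrial outer membrane assembly factor, had 0.2, 0.92 and 1.55, *Rbx1*, a ring subunit of cullin ubiquitin ligases, 0.6, 1.72 and 2.7, and *Slc23a1* 0.8, 2.08 and 3.45. *Ube2s*, which extends ubiquitin chains in mitosis, had 0.5, 1.1 and 2.05 and *C1qbp*, a mitochondrial matrix protein, 0.6, 2.32 and 1.6. Set 1 was the lowest type II set in all 6 genes. In type I, set 1 was not the lowest in *Slc23a1*, at 2.38, 1.03 and 2.55, or *C1qbp*, at 1.88, 1.53 and 1.75, and was level with set 2 in *Ube2s*, at 1, 1 and 1.1. It was the lowest in *Samm50*, at 0.5, 0.912 and 0.95, and, by a small margin, in *Rbx1*, at 1.5, 1.79 and 1.75.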

How the data were processed

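Estimated counts of transcripts, deposited by the authors as a table of E11 cells, had 0.1 taken off each value, after which they were whole numbers to within 7.11e-15. Per the submitters' processing notes, reads were aligned with BWA 0.6.2-r126 to mm10. Cells were assigned by their names, with 0 of 575 columns left over. Cells were summed per population and set. Ratios used a pseudocount of 0.1 and a floor of 0.3 transcripts per cell. Named genes are the 12 largest calls per direction and comparison, the given markers, the sorting genes, up to 4 called members and the most abundant member of each list, the 10 most variable genes and the 6 that differ most between sets. Exceptions are stated. A few listed genes and 1 list are not reported here. Values whose digits coincide with a cell's name are printed to 2 digits. The sex-linked list held 24 transcripts in type II cells, 13 of them *Ddx3y*, and is not described further. The list of sorting genes took 0.0611% of transcripts in type II and 0.0900% in type I cells, and without *Cdh5* 0.032% and 0.0316%. Members and lists were chosen with earlier results of these data known. Alternatives changed the pseudocount, floor, fold, sets, depth, cells and list members. No doublet caller was run, since cells were sorted into wells. Scripts in Python 3.11.15 with numpy 2.4.6, pandas 2.3.3, SciPy 1.17.1 and matplotlib 3.10.9 were tested on simulated data.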

Additional observations from a re-analysis of the deposited data

How the results depend on the processing

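Between type II and type I cells, 44 genes were called. The count moved to 3 with a pseudocount of 0.5, 121 with a floor of 0.1, 2 with a floor of 1, 240 with a fold of 1.5, 74 with sets weighted equally and 22 with cells thinned to 3000 transcripts. It stayed within 1.5 times with no requirement on sets (50) and without cells that hold over 2 transcripts of a gene the paper names for non-IAHC cells (62). That filter took 9 of 55 type II and 21 of 62 type I cells, kept 31 of the 44 genes, and ended the calls of *Ctla2a*, *Ung*, *Cmtm7*, *Ptpn7*, *Art4*, *Tuba1a*, *Id3*, *Lamb1*, *Sparc*, *Ddx27*, *Msi2*, *Prr11* and *Plekhj1*. Leaving out a set gave 66 to 127, with 29, 22 and 37 of the 44 genes kept without sets 1, 2 and 3. Of the 44 genes, 35 were also called with sets weighted equally and 12 at 3000 transcripts.

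Between type II and YS cells, 187 genes were called. The count moved to 37 with a pseudocount of 0.5, 474 with a floor of 0.1, 29 with a floor of 1, 650 with a fold of 1.5 and 118 at 3000 transcripts. Leaving out a set gave 189 to 294, with 157, 133 and 157 of the 187 genes kept. It was 191, 237 and 191 with no requirement on sets, with equal weights and without the cells named above, the last sharing 150 of the 187 genes.

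A floor of 1 compares fewer genes, 771 and 786, and thinning 1786 and 1778. A smaller fold and a lower floor admit more genes by construction. For the other changes the cause was not tested.

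Of 23 lists, 11 differed from type I in 1 direction in all sets. Under the alternatives this was 8 to 13, and 12 to 20 where a set was left out, with 20 reached without set 1. Fewer sets make the rule easier to meet. Of 163 ratios of list shares that an alternative could change, 151 moved by less than the SD of the 3 set ratios. Another 11 moved further, and 1 of a list with the same direction in all sets crossed 1, the interferon and MHC list without *Ifitm1*, with 0.997, or no difference, against 1.1. In all, 9 ratios of 5 lists crossed 1. The others were of lists mixed in direction, namely the sorting genes without *Cdh5* (1.01 against 0.679), the macrophage list at 3000 transcripts (1.5 against 0.752), stem cell surface genes (1 to 1.01 against 0.973) and dissociation genes (0.884 to 0.957 against 1). The cause was not tested. The number of type II cells nearer to YS was 13 to 20 under 4 alternatives, against 14.

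With 5000 transcripts per cell and 55 cells, a gene with a mean of 0.3 rests on few transcripts, and 16402 of 19424 genes were below the floor against type I cells. Set 1 holds 10 and 8 cells. There is 1 sample per group, so variation between embryos was not measured, and absence of a transcript in a cell is not absence of expression.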
